A study of Mus musculus with 12 samples.

Results

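Murine melanoma cells that had lost COX-2 were compared directly with the same cells after loss of COX-1. The members are the 3 *ptgs2*-KO and the 3 *ptgs1*-KO samples, chosen by the genotype in their labels, 6 of the 12 samples in the series. The other samples, 3 of scramble control cells and 3 of *ptges*-KO cells, entered the model only so that the 4 lines share an estimate of the spread. Scramble levels are given where they help to place a value. All lines derive from a C57BL/6 murine melanoma with the Braf V600E mutation, a tamoxifen-inducible Cre under the tyrosinase promoter (Tyr::CreERT2) and loss of p16INK4a, so both knockout lines and the scramble cells carry these alleles. The knockouts were made with CRISPR/CAS9 kits, selected with puromycin and subcloned by limiting dilution. RNA came from 3 subclones per line, cultured in vitro in serum-containing medium without other treatment. Each line therefore stands for its own subclones. A p-value sets a difference against the spread between samples of the same line, pooled over the 4 lines. The effect of a knockout and a difference that the subclones of a line share for another reason were not tested apart. How far the subclones of a line share a founder cell is not given in the sources used here.

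COX-1, encoded by *ptgs1*, and COX-2, encoded by *ptgs2*, catalyze the same step, the conversion of arachidonic acid to prostaglandin H2. Microsomal prostaglandin E synthase-1 (mPGES-1, encoded by *ptges*) turns prostaglandin H2 into PGE2, and other terminal enzymes and reductases make or remove the remaining prostaglandins. COX-1 is known as a constitutive enzyme in many tissues, while COX-2 is known as an inducible enzyme that is often high in tumors, where PGE2 acts through G protein-coupled receptors on tumor and immune cells.

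The mRNA levels are RPKM values (reads per kilobase of transcript, scaled to the number of mapped reads), and differences are in log2(RPKM + 1), *ptgs2*-KO minus *ptgs1*-KO, given with their SE. A positive difference means a higher level in *ptgs2*-KO cells. Of 30705 gene names, 11282 whose level averaged 1 RPKM or more across the 12 samples were tested with limma, and a gene was called at a Benjamini-Hochberg adjusted p under 0.05. Every adjusted p below comes from this fit. Because of the added 1, a difference understates the change of genes with low levels. An exact permutation test of 3 against 3 samples cannot go below 0.10 and was not used. The summed values were 881398 to 903881 per sample, and the estimated depth was 13.5 to 15.6 M reads. Markers of leukocytes and endothelial cells were near 0, with 15 of 16 and 8 of 8 genes below 1 RPKM in all 6 samples. The melanocyte genes *sox10*, *tyrp1*, *dct* and *mlana* were listed at 0 in all 6, so of the 8 melanocyte markers only *mitf* and *pax3* exceeded 1 RPKM. Of the fibroblast markers, *dcn* and *lum* were at 0, and the summed level of all 8 was 24.0 to 35.4 RPKM in *ptgs1*-KO and 9.75 to 11.5 RPKM in *ptgs2*-KO samples, almost all of it from *pdgfrb* and *pdgfra*.

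One library stood apart. In *ptgs1*-KO replicate 3, ribosomal RNA rows made up 13.5% of the summed values, against 0.528% to 4.79% in the other 11 samples, and the summed level of 33 small nucleolar RNA genes was 902 RPKM against 75.2 to 108 RPKM in the other 5 samples of the 2 lines. Results that moved when this library was left out are given both ways.

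The targeted genes separated the lines. The mRNA level of *ptgs1* was 16.9, 16.8 and 14.3 RPKM in the 3 *ptgs1*-KO samples and 158, 169 and 146 RPKM in the 3 *ptgs2*-KO samples. The groups did not overlap, and the difference was 3.22 ± 0.10 (adjusted p = 2.5e-10). The level of *ptgs2* was 624, 668 and 502 RPKM in *ptgs1*-KO and 78.5, 84.6 and 76.1 RPKM in *ptgs2*-KO samples, a difference of -2.88 ± 0.10 (adjusted p = 5.2e-10). Each targeted transcript thus remained at 10.6% (*ptgs1*) and 10.5% (*ptgs2*) of its scramble mean in its own knockout. The cyclooxygenase left intact stood at 78.5% of scramble for *ptgs2* in *ptgs1*-KO cells and at 104% for *ptgs1* in *ptgs2*-KO cells. The level of *ptges*, which neither knockout targeted, was 56.9, 55.0 and 51.5 RPKM in *ptgs1*-KO and 69.2, 69.4 and 63.4 RPKM in *ptgs2*-KO samples. It was higher in *ptgs2*-KO cells by 0.30 ± 0.08 (adjusted p = 0.014), 1.24 times the *ptgs1*-KO mean, and this call was lost without *ptgs2*-KO replicate 2 (adjusted p = 0.058). Both lines were below the scramble mean of 77.6 RPKM, at 70.2% in *ptgs1*-KO and 86.7% in *ptgs2*-KO cells. Against scramble cells, *ptges* was called lower in *ptgs1*-KO (adjusted p = 0.0011) but not in *ptgs2*-KO cells (adjusted p = 0.12).

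**Figure D1:**
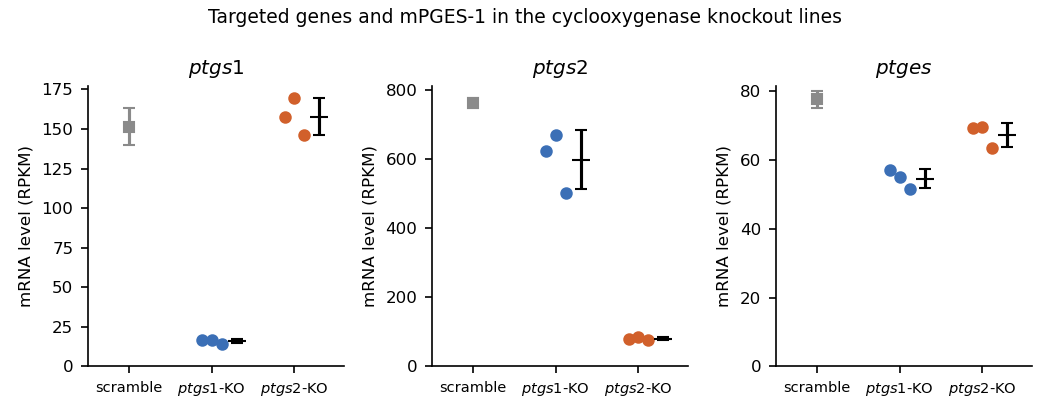
mRNA levels (RPKM, linear axes from 0) of *ptgs1*, *ptgs2* and *ptges*, with 1 point per *ptgs1*-KO (blue) and *ptgs2*-KO (orange) sample, the mean ± SD of each beside its points, and the scramble mean ± SD (n = 3) in gray. Each cyclooxygenase transcript is near 10.5% of scramble in its own knockout, and *ptges* is higher in all 3 *ptgs2*-KO than in all 3 *ptgs1*-KO samples.

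The list of prostanoid enzymes also holds *lta4h*, an enzyme of leukotrienes rather than prostanoids. Of its 12 tested members, 4 were higher and 2 lower in *ptgs2*-KO cells, against 12.1% of all tested genes called higher and 11.6% called lower. These counts include *ptgs1*, *ptgs2* and *ptges*, and of the 9 other enzymes 2 were higher and 1 was lower. *Cbr1*, a carbonyl reductase that can reduce PGE2 to PGF2α, was listed at 0.37, 0 and 0.06 RPKM in *ptgs1*-KO and at 7.18, 9.25 and 8.60 RPKM in *ptgs2*-KO samples. It differed by 3.04 ± 0.15 (adjusted p = 1.3e-08), and scramble cells held 6.15 RPKM. *Ptgr2*, a reductase that inactivates 15-keto-prostaglandins, had the opposite pattern. It stood at 4.33, 4.96 and 4.77 RPKM in *ptgs1*-KO and at 0.060, 0.060 and 0.17 RPKM in *ptgs2*-KO samples, a difference of -2.37 ± 0.13 (adjusted p = 2.8e-08) beside a scramble mean of 4.25 RPKM. Both genes were thus near 0 in all 3 samples of 1 knockout and at 136% (*cbr1*) and 110.2% (*ptgr2*) of scramble in the other. *Ptges3*, the cochaperone p23 that also has PGE synthase activity, was higher in *ptgs2*-KO cells by 0.33 ± 0.07 (adjusted p = 0.0026). The other 6 tested enzymes did not pass. They were the phospholipases *pla2g4a* (-0.14) and *pla2g6* (-0.26), the synthases *ptges2* (-0.15) and *akr1b3* (0.21), the reductase *ptgr1* (0.19) and *lta4h* (-0.07), the leukotriene A4 hydrolase. *Pla2g4a*, which releases arachidonic acid, was lower in *ptgs2*-KO cells by 0.18 without *ptgs1*-KO replicate 3 and then passed (adjusted p = 0.048).

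Of 5 tested prostanoid receptors and transporters, 1 was higher and 1 was lower in *ptgs2*-KO cells. *Ptgfr*, the PGF2α receptor, measured 4.01, 4.61 and 4.23 RPKM in *ptgs1*-KO and 0.72, 0.58 and 0.66 RPKM in *ptgs2*-KO samples (-1.68 ± 0.13, adjusted p = 1.1e-06), and scramble cells were at 0.883 RPKM, nearer to *ptgs2*-KO. *Ptger4*, which encodes the EP4 receptor for PGE2, was at 0.96, 0.80 and 0.89 RPKM in *ptgs1*-KO and at 2.65, 1.70 and 1.40 RPKM in *ptgs2*-KO samples (0.61 ± 0.16, adjusted p = 0.015). Its call rested on *ptgs2*-KO replicate 1, the highest sample, without which the adjusted p was 0.064. *Ptger1*, the EP1 receptor and the most abundant of the 3, was at 27.5 to 30.9 RPKM in *ptgs1*-KO and at 21.8 to 27.1 RPKM in *ptgs2*-KO samples and was not called (adjusted p = 0.10). The prostaglandin transporters *slco2a1* (-0.07) and *abcc4* (0.14) did not pass either.

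Across all tested genes, 2665 differed between the 2 knockouts (23.6%), 1360 of them higher and 1305 lower in *ptgs2*-KO cells. In 2609 of the 2665 the 3 *ptgs2*-KO samples did not overlap with the 3 *ptgs1*-KO samples, while 35.2% of all tested genes did not overlap. At an absolute log2 difference of at least 1, 278 genes remained (2.46% of those tested), 104 higher and 174 lower. Pairs of samples correlated across genes with r of 0.984 to 0.989 within *ptgs1*-KO, 0.987 to 0.992 within *ptgs2*-KO and 0.966 to 0.974 between the lines. Without *ptgs1*-KO replicate 3 the counts were 1019 higher (9.03%) and 1518 lower (13.5%), and 2189 genes were called in the same direction in both fits, so the share of calls that were higher fell from 51.0% to 40.2%. The numbers of higher and lower genes are therefore not compared with each other here.

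The calls were not spread evenly over the genome. Chromosome 3 held 532 of the 10715 tested genes with a known position, and 336 of these (63.2%) were higher in *ptgs2*-KO cells while 18 were lower. On each of the other 19 chromosomes, 7.31% to 12.6% of tested genes were higher. The median difference of chromosome 3 genes was 0.44, that is 1.36 times, against -0.06 to 0.03 for the other chromosomes, and 90.6% of chromosome 3 genes had a difference above 0. Neither targeted gene lies there, since *ptgs1* is on chromosome 2 and *ptgs2* on chromosome 1. Chromosome 3 genes made up 24.7% of all genes called higher, and without them 1024 genes were higher and 1287 lower. Of the genes placed on other chromosomes, 9.77% were higher and 12.1% lower.

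The same shift was present in every sample of both lines. Relative to the other chromosomes, the median level of chromosome 3 genes (log2, against the mean of the 12 samples) was -0.31, -0.29 and -0.30 in the 3 *ptgs1*-KO samples and 0.19, 0.18 and 0.18 in the 3 *ptgs2*-KO samples. The 3 scramble samples lay between them at 0.02, 0.02 and 0.01. Both knockouts therefore stood away from scramble cells, in opposite directions. When the chromosome was divided into 8 runs of 66 or 67 neighboring genes, each run had a median difference between 0.36 and 0.50. By mean level, the median was 0.28 for genes of 1 to 10 RPKM, 0.48 for 10 to 100 RPKM and 0.53 above 100 RPKM. Without *ptgs1*-KO replicate 3, the median was 0.39, with 290 genes higher and 19 lower. DNA was not measured, and a difference in chromosome copy number was not tested. A gene on chromosome 3 is named as such below, and the part of its difference that goes with the chromosome as a whole was not tested. The median is a description of these 6 samples without a test of its own.

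**Figure D2:**
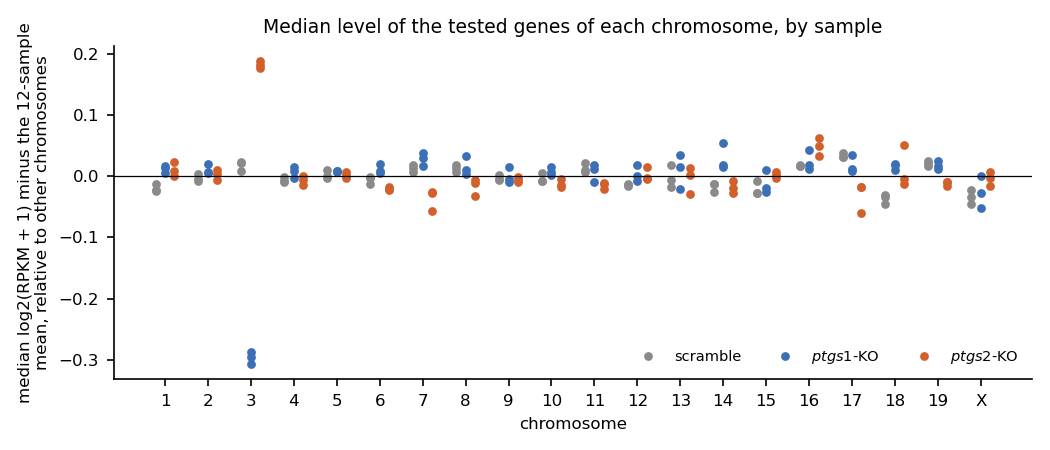
Median log2(RPKM + 1) of the tested genes of each chromosome in each scramble (gray), *ptgs1*-KO (blue) and *ptgs2*-KO (orange) sample, taken as the deviation from the mean of the 12 samples and relative to all other chromosomes. On chromosome 3 the 3 *ptgs1*-KO points lie near -0.30 and the 3 *ptgs2*-KO points near 0.18, while every point of these 3 groups on the other chromosomes lies between -0.06 and 0.06.

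The largest rise and the largest fall were those of a collagen chain and a TGF-beta coreceptor. *Col5a2*, the alpha 2 chain of type V collagen, was at 0.11, 0.22 and 0.21 RPKM in *ptgs1*-KO and at 37.4, 34.7 and 28.9 RPKM in *ptgs2*-KO samples (4.87 ± 0.12, adjusted p = 1.5e-11). Scramble cells were between, at 4.14 RPKM. *Eng*, the gene of endoglin, a coreceptor for TGF-beta and BMP ligands, was at 53.5, 52.1 and 44.9 RPKM in *ptgs1*-KO and at 0.55, 1.08 and 0.89 RPKM in *ptgs2*-KO samples (-4.80 ± 0.14, adjusted p = 1.9e-10). *Ptgs1*-KO cells stood at 94.8% of the scramble mean for *eng* and *ptgs2*-KO cells at 1.59%.

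Among the other large rises in *ptgs2*-KO cells, *fam132b*, which encodes the hormone erythroferrone, was at 0, 0.02 and 0.04 RPKM in *ptgs1*-KO and at 25.7, 26.6 and 23.2 RPKM in *ptgs2*-KO samples (adjusted p = 1.9e-12). *Fstl3*, a secreted inhibitor of activin and myostatin, was at 0 to 0.08 RPKM in *ptgs1*-KO and at 10.5 to 11.9 RPKM in *ptgs2*-KO samples. *Aim2*, a cytosolic sensor of double-stranded DNA, was at 0.17 to 0.27 RPKM against 13.1 to 13.6 RPKM, and the scramble means of *fstl3* (0.763 RPKM) and *aim2* (0.803 RPKM) were nearer to those of *ptgs1*-KO cells. *Ano3*, an anoctamin family member, and *foxa2*, a forkhead transcription factor, were listed at 0 in all 3 *ptgs1*-KO samples and reached 5.95 to 7.27 RPKM and 3.99 to 4.45 RPKM in *ptgs2*-KO samples. Their scramble means were 3.34 and 2.67 RPKM. *Pcdh7*, a protocadherin, *stxbp2*, a syntaxin-binding protein of vesicle fusion, *rhox5*, a homeobox gene of the X chromosome, *mfsd2a*, a lysolipid transporter, and *baiap2l1*, an actin and membrane adaptor, rose by 3.12, 2.79, 2.63, 2.54 and 2.37. The scramble mean of *pcdh7* was 17.4 RPKM, above the *ptgs2*-KO mean of 9.49 RPKM. Against scramble cells it was called lower in *ptgs1*-KO (adjusted p = 4.3e-10) and in *ptgs2*-KO cells (adjusted p = 8.9e-04). *Nes* (2.64), which encodes the neural progenitor intermediate filament nestin, and *fam189b* (2.46) complete the 15 largest rises and lie on chromosome 3, where both exceeded the chromosome's median of 0.44.

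Among the large falls besides *ptgs2*, *igfbp3* had the highest level. This insulin-like growth factor binding protein was at 497, 481 and 386 RPKM in *ptgs1*-KO and at 69.3, 76.7 and 66.7 RPKM in *ptgs2*-KO samples (-2.66 ± 0.09, adjusted p = 5.7e-10), with a scramble mean of 171 RPKM between the lines. *Gpnmb*, a melanosomal glycoprotein, was at 52.9, 53.4 and 47.2 RPKM against 7.64, 9.85 and 7.64 RPKM (-2.48 ± 0.10, adjusted p = 2.2e-09). *Tfpi*, the inhibitor of tissue factor, was at 7.32 to 10.9 RPKM against 0.40 to 0.58 RPKM. *Nme4*, a mitochondrial nucleoside diphosphate kinase, was at 5.04 to 5.78 RPKM in *ptgs1*-KO samples and listed at 0 in all *ptgs2*-KO and all scramble samples. *Scube3*, a secreted EGF-like protein, *lgsn*, a glutamine synthetase-like gene of the lens, *tshz3*, a zinc finger transcription factor, *mamdc2*, a proteoglycan, *scara5*, a scavenger receptor that binds ferritin, and *as3mt*, an arsenic methyltransferase, fell by 3.01, 2.91, 2.81, 2.71, 2.57 and 2.48. *3830403N18Rik* (-3.65), on the X chromosome, and *5730409E04Rik* (-3.21) are known here by clone names only. The scramble mean of *3830403N18Rik* was 1.02 RPKM, beside means of 27.8 RPKM in *ptgs1*-KO and 1.26 RPKM in *ptgs2*-KO cells. *Snord17*, a small nucleolar RNA, is the exception among the 15 largest falls, because *ptgs1*-KO replicate 3 alone held 179 RPKM against 16.5 and 22.6 RPKM in the other *ptgs1*-KO samples, and without that library it was not called (adjusted p = 0.076).

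**Figure D3:**
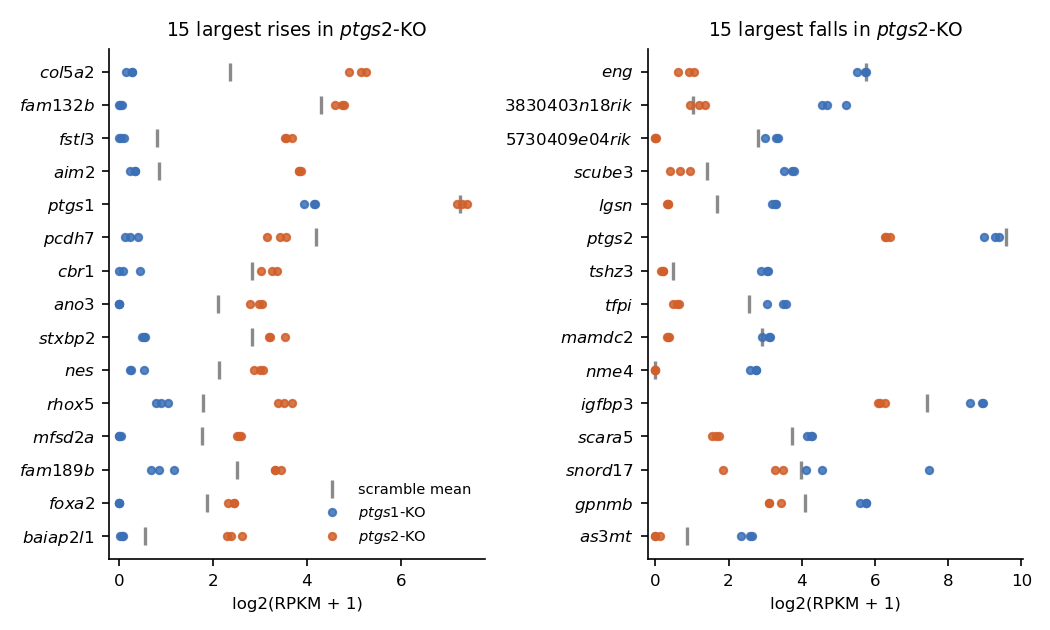
Levels, as log2(RPKM + 1), of the 15 strongest rises and the 15 strongest falls in *ptgs2*-KO against *ptgs1*-KO cells. Each point is a sample, *ptgs1*-KO in blue and *ptgs2*-KO in orange, and the gray tick is the scramble mean (n = 3). Only called genes without overlap between the lines were eligible, so the colors do not overlap in any row. For *snord17* a single blue point lies far to the right.

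In 14 genes the mean was under 0.2 RPKM in one line and over 5 RPKM in the other, 6 of them on in *ptgs2*-KO and 8 on in *ptgs1*-KO cells. Of these, 9 were called, and 8 of the 9 (*col5a2*, *fam132b*, *fstl3*, *cbr1*, *ano3*, *5730409E04Rik*, *tshz3* and *nme4*) are among the largest changes above. The remaining one, the predicted gene *Gm12238*, was at 1.51, 1.61 and 18.2 RPKM in *ptgs1*-KO samples and lost its call without replicate 3 (adjusted p = 0.070). The 5 uncalled ones were each listed at 0 in at least 1 sample of the line they were on in. The same limits without *ptgs1*-KO replicate 3 gave 7 genes on in *ptgs2*-KO and 6 on in *ptgs1*-KO cells, since 3 of the 14 left and 2 others entered. Over all samples left out in turn, the counts were 5 to 8 and 6 to 10.

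The gene lists differed in their direction. The called members were mostly higher in *ptgs2*-KO cells among targets of the transcription factor p53 and among glycolysis genes. They were mostly lower among genes of TGF-beta and BMP signaling, receptor tyrosine kinases, Wnt signaling, integrins and the basement membrane. Over all tested genes the median difference was -0.0048. Counts are read against the 12.1% of tested genes that were higher and the 11.6% that were lower.

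**Figure D4:**
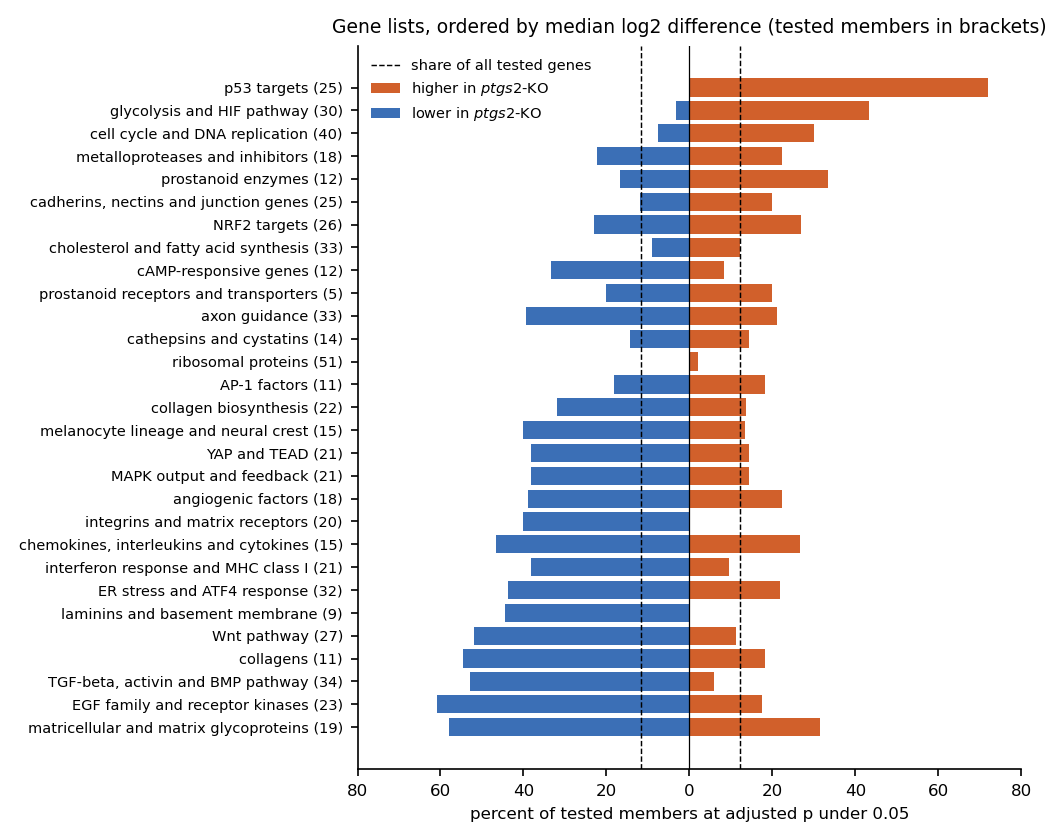
For 29 gene lists, the percent of tested members called higher (orange, to the right) or lower (blue, to the left) in *ptgs2*-KO against *ptgs1*-KO cells, ordered by the median difference, with the number of tested members in brackets. Dashed lines mark the share of all tested genes, 12.1% higher and 11.6% lower. The p53 targets reach furthest to the right, with 18 of 25 members, and the EGF family and receptor kinases furthest to the left, with 14 of 23.

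Of 25 tested p53 targets, 18 were higher and none lower in *ptgs2*-KO cells, with a median difference of 0.51. *Ccng1*, cyclin G1, was at 183, 178 and 147 RPKM in *ptgs1*-KO and at 421, 422 and 422 RPKM in *ptgs2*-KO samples (1.32 ± 0.09, adjusted p = 3.4e-07). *Cdkn1a*, which encodes the cell cycle inhibitor p21, was at 97.7, 92.1 and 85.1 RPKM against 171, 175 and 171 RPKM (0.91 ± 0.07, adjusted p = 6.9e-07). *Btg2*, an antiproliferative gene, was at 4.65 to 6.32 RPKM against 11.7 to 12.8 RPKM, and *gtse1*, a G2 and S phase gene, at 39.4 to 50.5 RPKM against 80.5 to 95.3 RPKM. *Zmat3*, an RNA-binding protein, rose by 1.07 and lies on chromosome 3, so that 17 of 24 members elsewhere were higher. *Mdm2*, the ubiquitin ligase of p53, rose by 0.63 (adjusted p = 3.4e-04) and the apoptosis genes *bax* and *pmaip1* by 0.33 and 0.39, whereas *trp53* itself differed by 0.13 ± 0.09 (adjusted p = 0.36). These 4 genes were chosen after their values were seen, and *bax* was not called under 5 settings, with an adjusted p of up to 0.11 without *ptgs2*-KO replicate 2. Scramble means of *ccng1* (274 RPKM) and *cdkn1a* (133 RPKM) lay between the lines. Without *ptgs1*-KO replicate 3, 17 members were higher and 1 lower.

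The promoter of *cdkn1a* is printed because, of the 14 higher p53 targets with a promoter sequence, it alone held a match to the p53 response element (the degenerate consensus of a pair of 10-base elements up to 13 bases apart, searched on both strands). Promoter sequences are from RefSeq on GRCm38.p6, from 250 bases before to 50 bases after the start of a gene, 1 per gene. The element was found in 0.0592% of all 27025 promoters. The stretch chr17:29090729-29091028, on the plus strand, is shown with the match in capitals. A match describes letters, not binding.

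*cdkn1a*: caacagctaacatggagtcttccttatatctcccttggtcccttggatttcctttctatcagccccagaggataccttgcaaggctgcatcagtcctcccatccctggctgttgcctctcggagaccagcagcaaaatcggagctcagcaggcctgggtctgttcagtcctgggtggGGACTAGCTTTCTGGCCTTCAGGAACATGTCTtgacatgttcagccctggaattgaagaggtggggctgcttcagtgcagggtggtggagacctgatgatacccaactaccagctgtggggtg

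Of 40 tested cell cycle genes, 12 were higher and 3 lower (median 0.11), with 10 higher without *ptgs1*-KO replicate 3. Besides *cdkn1a*, the G1 cyclin *ccnd2* rose by 0.79, from 53.1 to 63.7 RPKM in *ptgs1*-KO to 91.3 to 109.7 RPKM in *ptgs2*-KO samples. *Ccna2*, cyclin A2 on chromosome 3, rose by 0.70, and the inhibitor *cdkn1b* fell by 0.55. The remaining 25 members were not called.

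Glycolysis and hypoxia-inducible factor (HIF) genes were higher in *ptgs2*-KO cells in 13 of 30 tested members and lower in 1, with a median of 0.28, and none of the 30 lies on chromosome 3. *Slc16a3*, the lactate exporter MCT4, was at 163, 160 and 122 RPKM in *ptgs1*-KO and at 347, 407 and 345 RPKM in *ptgs2*-KO samples (1.31 ± 0.12, adjusted p = 3.7e-06). *Ldha*, the lactate dehydrogenase subunit, was at 1415, 1429 and 1218 RPKM against 1859, 2260 and 2206 RPKM (0.64 ± 0.10, adjusted p = 5.4e-04). The glycolytic enzymes *pgam1* and *pgk1* rose by 0.79 and 0.57. Their 3 *ptgs2*-KO samples were all above their 3 *ptgs1*-KO samples. *Ndrg1*, a stress-responsive gene often induced in hypoxia, went the other way, at 62.5, 59.7 and 51.2 RPKM in *ptgs1*-KO and 34.4 to 35.5 RPKM in *ptgs2*-KO samples (-0.70 ± 0.08, adjusted p = 4.5e-05). *Hif1a* differed by 0.42 ± 0.18 and was not called (adjusted p = 0.10), a gene named after its value was seen. Scramble means of *slc16a3* (275 RPKM) and *pgam1* (587 RPKM) lay between those of the lines. Without *ptgs1*-KO replicate 3, the lowest of the 3 for *slc16a3* and *ldha*, 10 members were higher and 1 lower.

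The core of the hypoxia response element, ACGTG (searched on both strands), was present in the promoters of 8 of the 13 higher members and of 7 of the 15 members without a call that had a sequence, against 19.7% of all promoters and 27.0% of those of tested genes. The motif was thus common in members of both kinds. The promoters of the 2 members with the largest rise are shown with the motif in capitals, *slc16a3* at chr11:120948817-120949116 and *pgam1* at chr19:41911621-41911920, both on the plus strand. They hold 2 copies and 1 copy.

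*slc16a3*: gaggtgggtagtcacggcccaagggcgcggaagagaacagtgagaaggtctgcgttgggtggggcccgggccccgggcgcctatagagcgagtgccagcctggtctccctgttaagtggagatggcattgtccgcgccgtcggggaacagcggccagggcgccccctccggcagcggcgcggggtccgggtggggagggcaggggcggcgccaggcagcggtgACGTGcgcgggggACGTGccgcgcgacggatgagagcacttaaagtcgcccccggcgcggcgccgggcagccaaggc

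*pgam1*: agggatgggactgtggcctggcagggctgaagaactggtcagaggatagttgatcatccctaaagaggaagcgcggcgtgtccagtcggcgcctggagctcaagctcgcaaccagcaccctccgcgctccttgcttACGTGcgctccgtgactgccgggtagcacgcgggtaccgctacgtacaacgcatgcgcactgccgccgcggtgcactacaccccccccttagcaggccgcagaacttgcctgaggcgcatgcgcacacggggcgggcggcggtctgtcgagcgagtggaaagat

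Of 32 tested genes of the endoplasmic reticulum (ER) stress and ATF4 response, *ptgs2*-KO cells had 14 lower and 7 higher (median -0.29). The lower members were led by *vldlr* (-1.22), a lipoprotein receptor, *trib3* (-1.14), a pseudokinase induced by ATF4, *pck2* (-0.90), the mitochondrial phosphoenolpyruvate carboxykinase, *slc7a11* (-0.76), the cystine and glutamate exchanger, and *atf5* (-0.66), a transcription factor. *Trib3* was at 97.6, 94.1 and 83.6 RPKM in *ptgs1*-KO and at 40.9, 39.1 and 42.7 RPKM in *ptgs2*-KO samples (adjusted p = 1.5e-07), with scramble cells at 48.5 RPKM. *Slc7a11* was at 30.5, 32.2 and 21.6 RPKM against 15.1, 16.5 and 16.3 RPKM, and it fell although it lies on chromosome 3. In these genes all *ptgs2*-KO samples were below all *ptgs1*-KO samples. The chaperones *hsp90b1*, *calr* and *hspa5* (BiP), named after their values were seen, rose by 0.48, 0.46 and 0.45, while *atf4* itself differed by -0.14 ± 0.09 (adjusted p = 0.28).

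**Figure D5:**
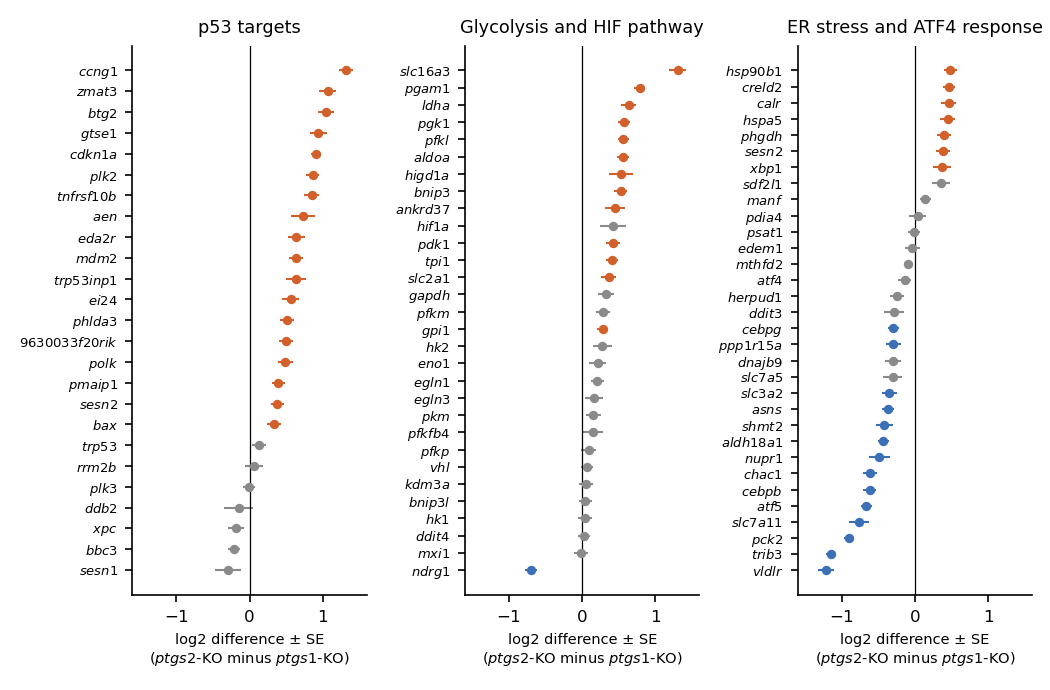
Difference in log2(RPKM + 1), *ptgs2*-KO minus *ptgs1*-KO, with its SE, for every tested p53 target, glycolysis and HIF gene, and ER stress and ATF4 gene. Orange and blue points were called higher and lower and gray points were not called. The p53 panel has no blue point and the glycolysis panel a single one (*ndrg1*), whereas the ER stress and ATF4 panel has points of both colors.

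The composite element TGATGCAA, bound by ATF4 with C/EBP factors, occurred on either strand in the promoters of 3 of the 14 lower members (*chac1*, *nupr1* and *slc7a11*), of none of the 7 higher members and of 1 of the 9 members without a call that had a sequence. It was present in 0.929% of all promoters and 0.600% of those of tested genes. The sequences of *slc7a11* (chr3:50443564-50443863, minus strand) and *chac1* (chr2:119350992-119351291, plus strand) are shown with the element, or its reverse complement, in capitals. *Chac1*, a glutathione-degrading enzyme, fell by 0.61 (adjusted p = 3.1e-04).

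*slc7a11*: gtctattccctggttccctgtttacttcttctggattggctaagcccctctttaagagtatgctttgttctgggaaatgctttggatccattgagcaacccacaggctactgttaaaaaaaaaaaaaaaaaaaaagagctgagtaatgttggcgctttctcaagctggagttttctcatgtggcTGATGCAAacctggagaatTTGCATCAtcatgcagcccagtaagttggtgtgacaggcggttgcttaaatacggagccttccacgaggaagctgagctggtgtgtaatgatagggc

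*chac1*: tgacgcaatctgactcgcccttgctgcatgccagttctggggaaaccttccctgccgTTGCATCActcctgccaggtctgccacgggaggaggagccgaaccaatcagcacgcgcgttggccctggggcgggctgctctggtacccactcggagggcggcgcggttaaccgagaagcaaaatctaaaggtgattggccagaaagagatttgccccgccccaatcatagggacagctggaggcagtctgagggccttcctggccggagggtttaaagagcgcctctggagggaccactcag

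Genes of the extracellular matrix differed in many members, mostly downward in *ptgs2*-KO cells. Of 11 tested collagens, 2 were higher and 6 lower (median -0.34). The 2 chains of type V collagen went in opposite directions, since *col5a1* was at 56.6, 51.1 and 49.5 RPKM in *ptgs1*-KO and at 16.1, 14.0 and 11.6 RPKM in *ptgs2*-KO samples (-1.85 ± 0.11, adjusted p = 1.1e-07) while *col5a2* rose. The scramble mean of *col5a1* was 16.1 RPKM, close to the *ptgs2*-KO level. *Col6a1*, of type VI collagen, had the largest fall, from 10.1 to 11.7 RPKM in *ptgs1*-KO to 1.47 to 1.84 RPKM in *ptgs2*-KO samples (-2.19 ± 0.11), and *col7a1*, of the anchoring fibrils, rose from 1.69 to 1.87 RPKM to 8.80 to 12.2 RPKM (2.06 ± 0.12). The scramble mean of *col6a1* was 1.42 RPKM, also close to the *ptgs2*-KO level.

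The most abundant collagens showed smaller differences. *Col4a1* and *col4a2*, the chains of basement membrane type IV collagen, fell by 0.60 and 0.44. *Col4a1* was at 565, 522 and 477 RPKM in *ptgs1*-KO and at 398, 341 and 297 RPKM in *ptgs2*-KO samples (adjusted p = 0.0014). *Col3a1*, the fibrillar type III collagen, was at 426, 403 and 367 RPKM against 324, 296 and 251 RPKM (-0.46 ± 0.10, adjusted p = 0.0044). *Col16a1* fell by 0.34 (adjusted p = 0.043). Leaving out single samples ended the call of *col4a2* (adjusted p up to 0.099) and of *col16a1* (up to 0.18). *Col8a1* (-0.03), *col4a5* (0.09) and *col18a1* (0.32) were not called, and their samples overlapped between the lines. Without *ptgs1*-KO replicate 1, *col18a1* passed (0.43, adjusted p = 0.024).

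Of 22 tested genes of collagen biosynthesis, 3 were higher and 7 lower (median -0.13), with 10 lower without *ptgs1*-KO replicate 3 and 4 lower without *ptgs1*-KO replicate 1 or 2 or *ptgs2*-KO replicate 1 or 3. *Loxl3*, a lysyl oxidase that cross-links collagen, was at 39.6, 38.9 and 33.7 RPKM in *ptgs1*-KO and at 17.4, 19.1 and 16.0 RPKM in *ptgs2*-KO samples (-1.05 ± 0.09, adjusted p = 2.5e-06). The procollagen proteinases *adamts14* and *bmp1* fell by 0.69 and 0.66. *P4ha1*, a prolyl hydroxylase subunit, rose by 0.64, and *pcolce2*, an enhancer of procollagen processing, by 0.83 from levels near 1 RPKM. Of 9 laminin and basement membrane genes, none was higher and 4 were lower (median -0.29), *agrn* (-1.01), *nid2* (-0.91), *lamb2* (-0.61) and *lama5* (-0.52). *Lama5* was not called without *ptgs2*-KO replicate 3 (adjusted p = 0.14).

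Of 19 tested matricellular and matrix glycoproteins, 6 were higher and 11 lower (median -0.49). *Fn1*, fibronectin, was at 104, 100.5 and 92.3 RPKM in *ptgs1*-KO and at 43.0, 34.1 and 31.6 RPKM in *ptgs2*-KO samples (-1.44 ± 0.12, adjusted p = 1.6e-06), and scramble cells were at 43.8 RPKM. *Emilin1*, an elastic fiber glycoprotein, and *mgp*, an inhibitor of calcification, fell by 1.38 and 1.36, and *tgfbi*, a TGF-beta-induced adhesion protein, rose by 1.46, and none of these 3 genes exceeded 3.71 RPKM in the 6 samples compared. The scramble mean of *tgfbi*, 5.26 RPKM, was above both lines. Of 20 integrins and matrix receptors, none was higher and 8 were lower (median -0.21). The alpha 4 and alpha 7 subunits *itga4* and *itga7* fell by 1.35 and 0.98. *Itgb7*, which pairs with alpha 4, was at 260, 248 and 212 RPKM against 108, 122 and 101 RPKM (-1.11 ± 0.09, adjusted p = 1.1e-06), and *itga6*, part of laminin receptors, at 257 to 326 RPKM against 146 to 195 RPKM. In each of these 4 genes the lines did not overlap.

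Metalloproteases, plasminogen activators and their inhibitors were 4 higher and 4 lower of 18 (median 0.07). *Plau*, the urokinase gene, rose from 0.36 to 0.40 RPKM to 2.68 to 4.30 RPKM (1.66 ± 0.13), and *plaur*, its receptor, rose by 0.52. *Plat*, the tissue plasminogen activator, fell by 0.77 and was the only lower gene left without *ptgs1*-KO replicate 1 or 2 or *ptgs2*-KO replicate 3.

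TGF-beta, activin and BMP genes had 2 higher and 18 lower of 34 tested members (median -0.36). *Fstl3* had the largest rise. After *eng*, the largest falls were those of *grem1*, *bmp6* and *smad6*. *Grem1*, a secreted BMP antagonist, was at 223, 215 and 173 RPKM in *ptgs1*-KO and at 63.6, 62.0 and 58.7 RPKM in *ptgs2*-KO samples (-1.71 ± 0.10, adjusted p = 8.2e-08), with scramble cells at 62.9 RPKM. *Bmp6*, a ligand, was at 16.9 to 19.1 RPKM against 5.35 to 5.84 RPKM (-1.51 ± 0.10), and *smad6*, an inhibitory SMAD, at 6.69 to 9.21 RPKM against 2.58 to 3.40 RPKM (-1.20 ± 0.14). The scramble mean of *bmp6*, 2.75 RPKM, was below both lines. Ligands and antagonists of the pathway were thus both among the lower genes.

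Of 27 Wnt pathway genes, 3 were higher and 14 lower (median -0.32). *Ndp*, which encodes norrin, a frizzled 4 ligand, was at 0.17 to 0.26 RPKM in *ptgs1*-KO and at 4.87 to 5.05 RPKM in *ptgs2*-KO samples (2.32 ± 0.11, adjusted p = 8.4e-09), beside 7.20 RPKM in scramble cells. The ligand *wnt7b* rose by 1.40. The receptor *ror1*, the Wnt deacylase *notum* and the ligand *wnt4* fell by 1.35, 1.21 and 1.00. Axon guidance genes had 7 higher and 13 lower of 33 members (median -0.07), and 2 or 3 were higher when *ptgs1*-KO replicate 2 or 3 or *ptgs2*-KO replicate 1 or 2 was left out. *Slit3*, a secreted ligand of ROBO receptors, was at 198, 174 and 162 RPKM in *ptgs1*-KO and at 43.7, 39.0 and 33.3 RPKM in *ptgs2*-KO samples (-2.18 ± 0.12, adjusted p = 4.8e-08). The semaphorin *sema3f* and the netrin receptor *unc5b* fell by 1.96 and 1.55.

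EGF family ligands and receptor tyrosine kinases had 4 higher and 14 lower of 23 tested members, with a median of -0.46. Among the ligands, *nrg2* (-1.70), *pdgfb* (-1.45) and *btc* (-1.28) fell, and *btc*, betacellulin, was at 51.5, 45.5 and 35.7 RPKM in *ptgs1*-KO and at 17.4, 18.1 and 16.8 RPKM in *ptgs2*-KO samples. Of the receptors, *pdgfra* was at 10.4, 11.1 and 9.86 RPKM against 4.30, 3.64 and 3.36 RPKM (-1.27 ± 0.10, adjusted p = 1.4e-06) and *pdgfrb* at 13.1 to 23.8 RPKM against 5.94 to 7.02 RPKM (-1.28 ± 0.21). These PDGF receptors are the fibroblast markers that differed above, and the other 6 markers of that list did not exceed 1.10 RPKM. *Csf1*, the macrophage growth factor, was higher at 507 to 643 RPKM against 298 to 364 RPKM but lies on chromosome 3. *Areg*, amphiregulin, was at 21.9, 21.7 and 22.96 RPKM in *ptgs1*-KO and at 39.7, 41.0 and 40.0 RPKM in *ptgs2*-KO samples (0.83 ± 0.07, adjusted p = 1.1e-06).

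The output and feedback genes of the MAPK pathway, which mutant BRAF activates, were 3 higher and 8 lower of 21 (median -0.18), and 1 was higher without replicate 2 of either line. *Ier3*, an immediate early gene, was at 119, 121 and 101 RPKM in *ptgs1*-KO and at 58.3, 62.7 and 63.8 RPKM in *ptgs2*-KO samples (-0.87 ± 0.09, adjusted p = 1.8e-05). *Il1rap*, the interleukin-1 receptor accessory protein, the ETS factors *etv1* and *etv4* and the inhibitor *spred1* fell by 0.74, 0.67, 0.53 and 0.66. Of 12 genes that respond to cAMP, the second messenger of the EP4 receptor, *areg* was higher and 4 were lower (median -0.07). The 4 were the immediate early genes *fos* (-1.31), *nr4a2* (-0.78), *fosb* (-0.63) and *dusp1* (-0.38). *Fos* was at 13.5, 16.1 and 15.2 RPKM in *ptgs1*-KO and at 5.90, 5.23 and 5.06 RPKM in *ptgs2*-KO samples (adjusted p = 3.6e-06), with scramble cells at 12.5 RPKM. Of 11 AP-1 and related factors, 2 were higher and 2 lower (median -0.12). The higher ones were *maf* (1.12) and *fosl1* (0.22), and 11 of 15 alternative settings ended the call of *fosl1*. Without *ptgs1*-KO replicate 3, 1 factor was higher and 3 were lower.

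Of 15 tested chemokine, interleukin and cytokine genes, 4 were higher and 7 lower (median -0.22). *Cxcr4*, the receptor of CXCL12, was at 12.7, 11.6 and 7.20 RPKM in *ptgs1*-KO and at 1.16, 1.00 and 1.25 RPKM in *ptgs2*-KO samples (-2.40 ± 0.20, adjusted p = 1.6e-06), and scramble cells were at 2.77 RPKM. *Il16*, *il11* and the chemokine *cx3cl1* fell by 1.24, 0.88 and 0.75. Interferon response and MHC class I genes were 2 higher and 8 lower of 21 (median -0.22), with 10 lower without *ptgs1*-KO replicate 3. Besides *aim2*, the peptide transporter subunit *tap1* rose by 0.86, while the transcription factor *irf1*, the antiviral membrane protein *ifitm3* and the peptide-loading factor *tapbp* fell by 0.75, 0.72 and 0.70. Of 18 angiogenic factors, 4 were higher and 7 lower (median -0.19). *Flt1*, VEGF receptor 1, was at 41.4, 35.6 and 32.2 RPKM against 14.7, 12.8 and 10.8 RPKM (-1.44 ± 0.14, adjusted p = 8.4e-06) and *ephb4* fell by 1.17, whereas the coreceptor *nrp1* and the ligands *pgf* and *vegfc* rose by 1.35, 1.17 and 1.06.

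The other lists gave no common direction or fewer calls. Junction genes were 5 higher and 3 lower of 25 (median 0.05), and 4 higher and 4 lower without *ptgs1*-KO replicate 3. After *pcdh7*, the tight junction gene *cldn1* had the largest change, at 214, 202 and 167 RPKM in *ptgs1*-KO and at 92.3, 87.5 and 80.4 RPKM in *ptgs2*-KO samples (-1.15 ± 0.11, adjusted p = 4.6e-06). *Pcdh18* (0.89) rose and *vcam1* (-0.77), an adhesion molecule for leukocytes, fell, both on chromosome 3, and *jup*, plakoglobin, rose by 0.82. Melanocyte and neural crest genes were 2 higher and 6 lower of 15 (median -0.13), led by *nes* and *gpnmb*, and 3 were lower without *ptgs1*-KO replicate 1 or *ptgs2*-KO replicate 3. Genes of the YAP and TEAD program were 3 higher and 8 lower of 21 (median -0.14), with *cyr61* (0.77) and the tissue factor gene *f3* (-0.73), both on chromosome 3, among the largest changes, and 5 lower without *ptgs2*-KO replicate 3. The NRF2 targets were 7 higher and 6 lower of 26 (median 0.05), with 3 or 4 higher without *ptgs1*-KO replicate 2 or 3 or *ptgs2*-KO replicate 2 or 3. Without *ptgs1*-KO replicate 3, 4 were higher and 8 lower, while 2 or 3 were lower without *ptgs1*-KO replicate 1 or *ptgs2*-KO replicate 3. *Cbr3*, a carbonyl reductase related to *cbr1*, was at 3.12 to 4.02 RPKM in *ptgs1*-KO and at 0.68 to 0.81 RPKM in *ptgs2*-KO samples (-1.41 ± 0.13), a direction opposite to that of *cbr1*. *Gclm*, of glutathione synthesis, rose by 0.61 on chromosome 3.

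Cathepsins and cystatins were 2 higher and 2 lower of 14 (median -0.08). *Ctsc* and the inhibitor *cst6* rose by 1.81 and 1.15, and *ctsh* and *ctsf* fell by 1.08 and 1.06. None of these 4 genes exceeded 5.72 RPKM in the 6 samples compared. The scramble mean of *ctsc*, 5.48 RPKM, was above both lines. Cholesterol and fatty acid synthesis genes were 4 higher and 3 lower of 33 (median 0.01), and 3 of the 4 higher ones lie on chromosome 3. Without *ptgs1*-KO replicate 3, 5 were lower. Of 51 ribosomal protein genes, only *rpl34* was called (0.57, adjusted p = 0.018), and it too lies on chromosome 3 and was not called without replicate 2 of either line (adjusted p = 0.079 and 0.082). These last 2 lists had shares of calls at or below the 23.6% of all tested genes.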

How the data were processed

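RNA from 12 samples of murine melanoma cells was measured by RNA-seq, and the 3 *ptgs2*-KO and 3 *ptgs1*-KO samples, grouped by their labels, were compared. The authors deposited RPKM values made from 101 bp paired-end reads, with mm10 named in the submitters' processing notes. The aligner, counter and annotation are not given in the sources used here. The labels name both TruSeq and NEXTflex kits for library construction. All 12 measured columns were mapped to samples and 0 were left out. Any 2 of the 6 samples compared shared identical values in at most 0.470% of tested genes. Depth was estimated from the smallest step of value times length among transcripts of at most 1500 bases, and is approximate. Whole reads were not recovered, so no count model or counting interval was computed.

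The model was limma 3.58.1 in R 4.3.3 (lmFit and eBayes with trend) on log2(RPKM + 1), for genes averaging 1 RPKM or more across the 12 samples, all of which entered with 4 group means. P-values were adjusted by Benjamini-Hochberg over all tested genes and called under 0.05. The script was tested on simulated data. Summaries and figures used Python 3.11.15 and matplotlib 3.10.9. Positions are from GENCODE M21 by symbol (9810 genes) or RefSeq (905 genes), both GRCm38. The RefSeq promoter table held a sequence for 7827 of the tested genes.

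The comparison and the gene lists were chosen with earlier results of these data known. Genes named are the 3 prostanoid genes knocked out in the series, the 15 largest rises and falls among called genes without overlap between the lines, up to 5 called members with the largest difference in each list, all tested collagens and prostanoid genes, and genes under 0.2 RPKM in one line and over 5 RPKM in the other. One gene that this rule selects is not reported here. Alternatives were the pseudocount, the filter, scaling, the replicate number as a block, fewer samples in the model and leaving out each sample. Chromosome summaries and the removal of ribosomal RNA rows were added after seeing the data.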

Additional observations from a re-analysis of the deposited data

Results flagged for a closer look

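Chromosome 3 genes had a median difference of 0.44 between the knockouts. Against scramble cells their medians were -0.29 in *ptgs1*-KO and 0.18 in *ptgs2*-KO cells, with all 3 samples of each line on the same side. The difference of these medians was not tested, nor was its cause.

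Of 158 genes whose differences are given, 35 off chromosome 3 were called by limma (Benjamini-Hochberg adjusted) on opposite sides of scramble cells in the 2 lines. A called difference between the lines was a condition for entering this set. Many of the 158 genes were named for a large difference between the lines. The count is thus not a share of all tested genes, for which it was not made. Both lines were set against the same 3 scramble samples. In 15 genes *ptgs1*-KO cells were below and *ptgs2*-KO cells above scramble cells. These were *col5a2* (difference between the lines 4.87), *fam132b* (4.68), *fstl3* (3.54), *aim2* (3.54), *ano3* (2.94), *rhox5* (2.63), *mfsd2a* (2.54), *foxa2* (2.40), *baiap2l1* (2.37), *ccng1* (1.32), *slc16a3* (1.31), *gtse1* (0.94), *cdkn1a* (0.91), *pgam1* (0.79) and *pgk1* (0.57). For *col5a2* the differences from scramble cells were -2.12 in *ptgs1*-KO and 2.75 in *ptgs2*-KO cells, and for *cdkn1a* they were -0.53 and 0.37.

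In the other 20 genes *ptgs1*-KO cells were above and *ptgs2*-KO cells below scramble cells. These were *5730409E04Rik* (-3.21), *scube3* (-3.01), *lgsn* (-2.91), *tfpi* (-2.79), *igfbp3* (-2.66), *scara5* (-2.57), *gpnmb* (-2.48), *as3mt* (-2.48), *cxcr4* (-2.40), *slit3* (-2.18), *sema3f* (-1.96), *nrg2* (-1.70), *unc5b* (-1.55), *pdgfb* (-1.45), *flt1* (-1.44), *emilin1* (-1.38), *ror1* (-1.35), *il16* (-1.24), *vldlr* (-1.22) and *loxl3* (-1.05). For *igfbp3* the differences from scramble cells were 1.40 and -1.26, and for *slit3* 1.13 and -1.04.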

How the results depend on the processing

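Counting only genes with an absolute log2 difference of at least 1 reduced the 2665 changed genes to 278, and leaving out 1 sample gave 2004 to 2537. The other settings, among them the limit to the 6 samples (1962) and median ratio scaling (3302), kept the count within 1.5 times. Without the ribosomal RNA rows 41.9% of the calls were higher (1259 higher, 1744 lower), against 51.0% with them. With 1 sample left out, *ptgs1* differed by 3.15 to 3.28, *ptgs2* by -3.003 to -2.80 and *ptges* by 0.26 to 0.34, the last not called without *ptgs2*-KO replicate 2 (0.28, adjusted p = 0.058). Chromosome 3 kept 290 to 369 genes higher over all settings, with a median of 0.39 to 0.49. The p53 targets kept 16 to 18 members higher, and the glycolysis and HIF genes 9 to 15. Lower members numbered 11 to 21 among TGF-beta, activin and BMP genes (1 to 5 higher), 9 to 14 among the EGF family and receptor kinases, 10 to 16 among ER stress and ATF4 genes (5 to 8 higher) and 4 to 6 among collagens (1 to 3 higher).

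Deviations of samples with the same number correlated with r of 0.0575, 0.278 and 0.0525 for numbers 1 to 3. For samples with different numbers r was -0.241 to 0.15. Whether the numbers pair the samples was not tested, and the main model treats the samples as unpaired. With the replicate number as a block, 2771 genes were called.

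Besides the 3 targeted genes, 140 named genes were called, of which 131 kept direction and call under every setting and 9 lost the call under at least 1, with no reversal. Some uncalled genes changed sign, *slco2a1* (0.012) under quantile normalization and others with 1 sample left out. Over the samples left out, *lta4h* ran from -0.17 to 0.038, *slco2a1* from -0.20 to 0.071, *abcc4* from -0.021 to 0.27, *col4a5* from -0.007 to 0.19 and *col8a1* from -0.13 to 0.0705. The deposited values hold no read counts, so low levels have no counting error attached, and 3 subclones a line limit what can be detected.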

Other observations

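These genes were chosen after their values were seen. Within chromosome 3, 18 genes were called lower in *ptgs2*-KO cells, against the direction of the chromosome. The largest such falls were those of *tram1l1* (-2.27), *ptgfr*, *sucnr1* (-1.44), the receptor for succinate, and *s1pr1* (-1.11), a receptor for sphingosine 1-phosphate. Beside *nes* and *fam189b*, the largest rises on this chromosome were those of *npnt* (2.33), which encodes the basement membrane protein nephronectin, *ddit4l* (2.16), an inhibitor of mTOR signaling, *6530418L21Rik* (1.69), known here by its clone name, and *pfn2* (1.59), a profilin.

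Replication-dependent histone genes moved with *ptgs1*-KO replicate 3. Their summed level was 1634 RPKM in that library and 348 to 623 RPKM in the other 5. Of 56 tested, 1 was higher and 10 were lower in *ptgs2*-KO cells (median -0.73), and without that library 2 were higher and 3 lower (median -0.31).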
